A study of Solanum lycopersicum with 84 samples.

Results

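At 49 days after flowering (DAF), the seed coat of tomato was compared with the tissues it encloses, the embryo and the endosperm. The comparison used 9 of the 84 libraries of the series, 3 of seed coat, 3 of embryo and 3 of endosperm, which were chosen by their tissue and age labels alone. All came from Solanum lycopersicum cv. Moneymaker grown in a greenhouse, and no treatment or mutant entered the comparison. Seeds were taken from the equatorial part of the fruit and dissected by hand, and each biological replicate pooled 10 to 20 seeds. Seed coats were sequenced at 35, 42 and 49 DAF, so 49 DAF was their last stage. The study reported that extracting intact RNA from the seed coat became impossible at around this time. Whether RNA quality in the 3 seed coat libraries affected the values below was not tested. The study extracted RNA with a kit setting of its own for each tissue, recommended for grape vine leaf in the case of seed coat, for potato tuber in that of endosperm and for alfalfa in that of embryo. Tissue and extraction setting therefore cannot be told apart in any comparison below. Whether replicates came from separate plants was not given, and p-values then measure only the spread between these samples. The labels did not tie libraries to a plant, fruit or growing season, and no value within a season could be calculated.

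The seed coat develops from the integuments of the ovule and is maternal tissue, whereas the embryo and the endosperm both result from fertilization. It deposits secondary walls, lignin, mucilage and proanthocyanidins (condensed tannins, flavonoid polymers that brown and harden the coat), and its cells die before the seed is dry. The endosperm and embryo stay alive, store protein and oil, and accumulate the protective proteins that allow a seed to survive drying. Abscisic acid (ABA), the hormone that promotes maturation and dormancy, is made in both maternal and filial tissues.

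Transcripts were counted on 33976 gene models, and levels are given as CPM, a gene's counts scaled by the library total. Totals lay between 21203486 and 21946268 counts in the 9 libraries, so 3 counts, taken here as the limit of detection in a library, were 0.137 to 0.141 CPM. The limit and all intervals cover counting error only. Between 17419 and 17492 genes exceeded 1 CPM in seed coat, against 14207 to 14411 in embryo and 15308 to 15644 in endosperm. The 10 most abundant genes of a library took 11.98% ± 1.06 (SD, n = 3) of the counts in seed coat, 38.5% ± 6.49 in embryo and 26.2% ± 1.31 in endosperm. Because of this difference in composition, fold changes were scaled by the trimmed mean of M values (TMM), with factors averaging 1.13 in seed coat, 0.635 in embryo and 0.767 in endosperm. A fold change is therefore smaller, or more negative, for seed coat than the ratio of CPM values would give.

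Seed coat libraries correlated with each other at 0.988 to 0.996 over log2 CPM, with embryo libraries at 0.691 to 0.703 and with endosperm libraries at 0.731 to 0.776, while embryo and endosperm libraries correlated at 0.872 to 0.890. These are Pearson values across genes, which are not independent replicates. The labels were set beside marker genes, taken from genes that the study described on these same libraries, so that a match is partly fixed in advance. Together, 4 genes taken as embryo markers (SlFUSCA3, SlABI4-1, SlABI4-2 and SlWRI1, a regulator of oil synthesis that is not particular to embryos) reached 89.6 to 111 CPM in embryo, 2.12 to 3.83 in seed coat and 1.16 to 2.56 in endosperm. Of these, the study described only the SlABI4 pair as specific to embryo. The 3 seed coat markers (NOTABILIS, GolS2 and a pectin lyase, described below) summed to 241 to 339 CPM in seed coat, 0.367 to 0.687 in embryo and 1.02 to 2.28 in endosperm. Of the 2 endosperm markers, the raffinose synthase gene Solyc03g112500 stood at 8.003, 9.77 and 12.9 CPM in endosperm and at 0.141, 0.233 and 0.187 in seed coat. The other, SlPROCERA, was at 68.3 to 77.4 CPM in endosperm but also at 23.1 to 28.3 in seed coat. Genes that the study listed as preferential for seed coat, which it chose on these libraries and which were held here only in part, summed to 5936 to 8519.8 CPM in seed coat and to at most 61.8 in any inner library. Those of endosperm summed to 149.8 to 191 CPM in seed coat, against 5313 to 11784 in endosperm, and those of embryo to 30.5 to 34.5 against 367 to 706. No fruit flesh marker was annotated, so adhering fruit tissue was not tested.

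Seed coat was apart from both inner tissues in a large part of the genes. Of 24676 genes tested, 5655 were higher in seed coat than in embryo and also than in endosperm (22.9%), and 3019 were lower than in both (12.2%). A gene counted as called when its log2 fold change exceeded 1 in size and its adjusted p lay under 0.05 in edgeR (quasi-likelihood, adjusted by Benjamini and Hochberg over all genes tested). Compared with embryo, 7591 genes were higher (30.8%) and 5443 lower (22.1%). Compared with endosperm, 7059 were higher (28.6%) and 5403 lower (21.9%). Against the mean of embryo and endosperm, 7486 were higher (30.3%) and 4864 lower (19.7%). A gene rarely had opposite calls, since 324 genes were higher than embryo but lower than endosperm (1.31%) and 161 the reverse (0.652%). Genes called against embryo but not against endosperm comprised 1612 higher (6.53%) and 2263 lower ones (9.17%), and those called against endosperm but not embryo 1243 higher (5.04%) and 2060 lower ones (8.35%). Neither comparison called 8339 genes (33.8%). In CPM, all 3 seed coat libraries lay above all 6 inner libraries for 11044 genes (44.8%) and below them for 2629 (10.7%). Of the genes called against both inner tissues, 3267 higher ones (13.2% of all genes tested) and 1461 lower ones (5.92% of all genes tested) reached 10 CPM and did not overlap between the groups. The 10 CPM applied to the seed coat mean for higher genes and to the lower of the inner means for lower genes. Both cuts used CPM without TMM scaling, in which seed coat stands relatively higher than in the fold changes.

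The genes higher in seed coat were further from the inner tissues than the lower ones. The median log2 fold change of called genes was 3.62 for those higher than embryo and −2.05 for those lower, and 3.04 and −2.50 against endosperm. More than 32-fold separated seed coat from each inner tissue for 1161 higher genes (4.7%) and for 65 lower ones (0.263%). The directions have unlike limits. Higher genes can lack counts in an inner tissue, where the fitted fold depends on the prior count. Of 398 lower genes with at least 100 CPM inside, 3 lay under 2% of the inner CPM in seed coat library 1 and none in libraries 2 and 3. Whether such limits shape the difference was not tested. The split of calls depended on scaling. Without TMM, on library totals, the median of all genes moved by 0.81 against embryo and by 0.55 against endosperm, and the share of calls that were higher in seed coat rose from 58.2% to 78.8% against embryo and from 56.6% to 71.4% against endosperm. A fall of a gene in seed coat is thus read relative to the median gene.

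**Figure D1:**
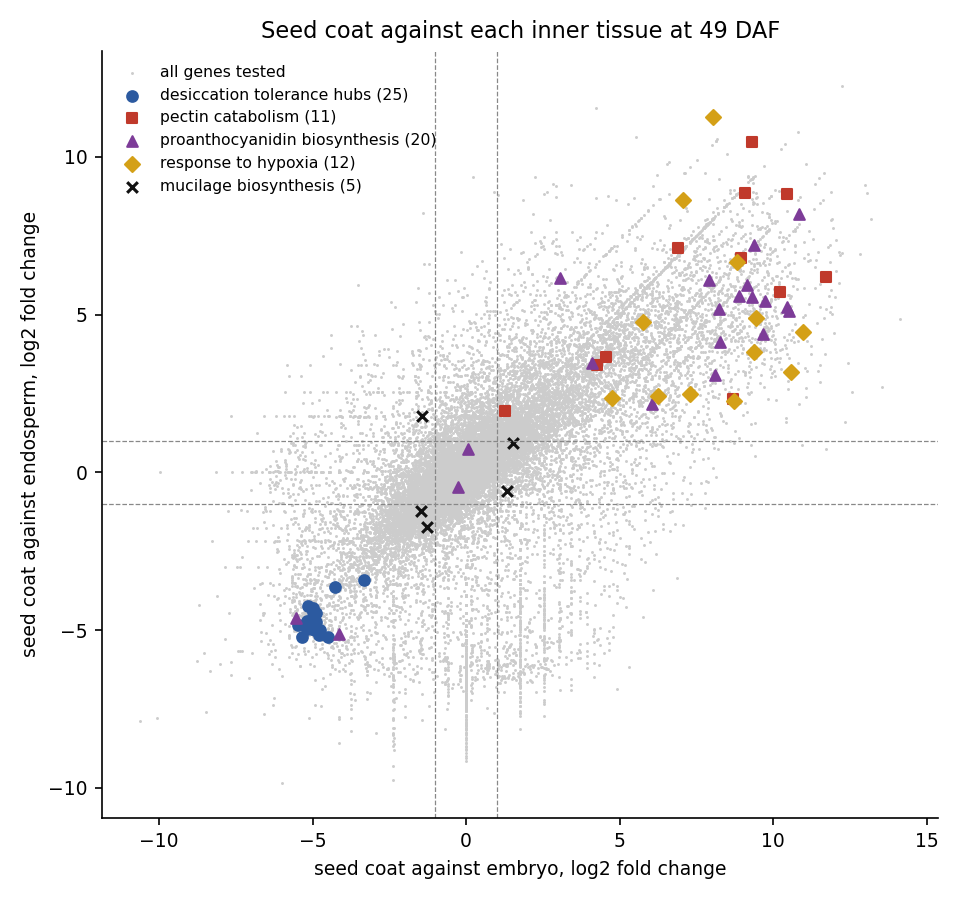
Log2 fold change of seed coat against embryo (x axis) and against endosperm (y axis) at 49 DAF for the 24676 genes tested (grey), with 5 gene lists in colour and the number of their members in the key; dashed lines mark a log2 fold change of 1 in either direction. All 25 desiccation tolerance hub genes lie in the lower left and all 11 pectin catabolism genes in the upper right; fitted values of genes at or near 0 counts in an inner tissue depend on the prior count.

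The pectin catabolism genes of the study's seed coat module, which act on the polymer that glues plant cells together, were higher in seed coat. Most gene lists come from GO terms of the study's co-expression modules, ME9 in this case. Each holds only those genes of the term that fall in the modules named, and members in other modules were left out. The study formed the modules on these libraries. It placed ME1, ME5, ME9, ME15 and ME20 in its group with early expression in whole seeds and seed coat. The direction of a list from these modules is therefore partly built in. All 11 members of the pectin catabolism list were higher than in both inner tissues, where 22.9% of all genes were, and their median log2 fold change against the inner mean was 7.87, beside 0.05 over all genes. Together they reached 881, 1030.0 and 1085 CPM in the seed coat libraries, 3.21 to 5.402 in embryo and 4.79 to 17.2 in endosperm. With the 2 members at 0 in each embryo library set to their bound, the list's median against embryo was 7.33 (fitted 8.96). Of 3 pectin-degrading genes found by description alone, 1 was higher than both inner tissues, and Solyc11g070187 had log2 fold changes of −0.64 and 0.08.

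The most abundant member, Solyc07g043240, was at 567, 667 and 725 CPM in seed coat. It was at 0.319, 0.184 and 0.275 CPM in embryo and at 0.698, 0.841 and 1.39 in endosperm. The groups were far apart, with log2 fold changes of 10.46 ± 0.626 (SE) and 8.83 ± 0.558 and adjusted p of 3.3e-19 and 3.4e-18. Solyc03g111690 was at 43.4, 137 and 102 CPM in seed coat, 1.46 to 3.57 in embryo and 1.91 to 8.17 in endosperm.

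All 5 genes of module ME9 annotated to wall modification in abscission, the loosening of walls where plant organs detach, were among the pectin catabolism genes. The pectin lyase gene Solyc04g015530, which encodes an enzyme that cleaves pectin, was at 17.8, 56.2 and 43.7 CPM in seed coat. In embryo it was at 0, 0.0459 and 0 CPM and in endosperm at 0.0465, 1.03 and 0.464. It had 1 count in all embryo libraries together, and the ratio of CPM was 2579 with a counting interval of 462 to 101896. Against endosperm its log2 fold change was 5.72 ± 0.920. Solyc12g019180 had 157, 35.1 and 44.2 CPM in seed coat, the first library well above the other two, and at most 0.279 in any inner library. Solyc10g080210 had 37.2, 74.7 and 104 CPM, here with the first library lowest, and at most 0.0929 in any inner library.

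Cinnamic acid is the first product of the phenylpropanoid pathway, which supplies lignin, tannin and other phenolic precursors. All 6 genes of module ME9 annotated to its biosynthesis were higher than in both inner tissues (22.9% of all genes were), and Solyc05g056170 carried most of their counts. It was at 1148, 2067 and 1879 CPM in seed coat and at 0.911, 1.42 and 1.14 in embryo. Endosperm libraries held 31.1, 104 and 158 CPM, and the log2 fold changes were 9.70 ± 0.843 and 3.59 ± 0.617. Solyc05g053330 was at 52.0, 55.3 and 86.7 CPM in seed coat and at most 1.39 in any inner library. Polyphenol oxidase (Solyc02g078650), which oxidizes phenolics to browning quinones, was at 21.9, 29.8 and 40.9 CPM in seed coat and at most 0.0935 in any inner library, but it was not called by DESeq2. The dirigent protein gene Solyc02g082740, of a family that guides the coupling of monolignols, was at 9.80 to 12.9 CPM against 0.0911 to 0.366 in embryo and 0.327 to 0.605 in endosperm. It was the 1 of 3 lignin and phenylpropanoid genes found by description that was higher than both. Of the others, the dirigent protein 17 gene Solyc10g084440 had log2 fold changes of −1.71 against embryo and −0.83 against endosperm, and the 4-coumarate CoA ligase-like gene Solyc12g094520 had 2.65 and 0.69.

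Genes of module ME9 annotated to low oxygen, cell death and senescence followed the same direction. All 12 of its genes for the cellular response to hypoxia were higher in seed coat than in both inner tissues (22.9% of all genes were), with a median log2 fold change of 6.74 against the inner mean. Their summed level was 1004, 1481 and 1375 CPM in seed coat, 1.69 to 4.26 in embryo and 18.2 to 74.1 in endosperm. Solyc09g005970, also annotated to salt stress, was at 453, 611 and 606 CPM in seed coat and at 0.0911, 0.184 and 0.183 in embryo. Its endosperm levels of 3.26, 21.3 and 28.7 CPM spread widely but remained far below seed coat. Solyc03g006700, annotated to syringyl lignin synthesis besides hypoxia, was at 318, 459 and 368 CPM against at most 13.6 in any inner library.

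Of 9 genes of module ME9 annotated to positive regulation of programmed cell death, 8 were higher than in both inner tissues, as were 7 of 10 for leaf senescence and 22.9% of all genes. The 2 lists share 5 genes. The summed level of the cell death list was 134, 136 and 165 CPM in seed coat, at most 0.969 in embryo and 3.14 to 13.7 in endosperm. Solyc07g051880, in both lists, was at 36.9, 40.4 and 52.6 CPM in seed coat and at most 1.16 in any inner library, and Solyc07g051860, of the senescence list, was at 50.5, 98.6 and 106 against at most 3.71. Of 4 proteases found by description, 1 was higher than both inner tissues and 2 were lower, beside 11.99% and 43.3% of all described genes, and the SAG39 gene Solyc02g061900 was higher than embryo but not called against endosperm (log2 2.95). Cysteine protease CP14 (Solyc02g076730) was higher in seed coat, at 3.91, 3.54 and 3.87 CPM against 0.276 to 0.820 in embryo and 0.327 to 0.557 in endosperm. Vacuolar-processing enzyme (Solyc08g079160), a protease that matures storage proteins and acts in plant cell death, was lower, at 32.4, 48.9 and 50.4 CPM against 855 to 983 and 925 to 1008. Cysteine proteinase 15A (Solyc11g008260) was likewise lower, with log2 fold changes of −5.12 and −4.89.

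In each of these lists endosperm stood above embryo in summed level, and endosperm library 1 held the lowest value of the 3 (18.2, 54.8 and 74.1 CPM for hypoxia and 32.5, 106 and 161 for cinnamic acid). For the 851 genes higher in seed coat than in both inner tissues with at least 100 CPM in seed coat, the median level in the embryo libraries was 1.65 to 1.68% of that in seed coat. In the endosperm libraries it was 3.70, 5.34 and 6.24%. Whether seed coat cells remained on the dissected endosperm was not tested.

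**Figure D2:**
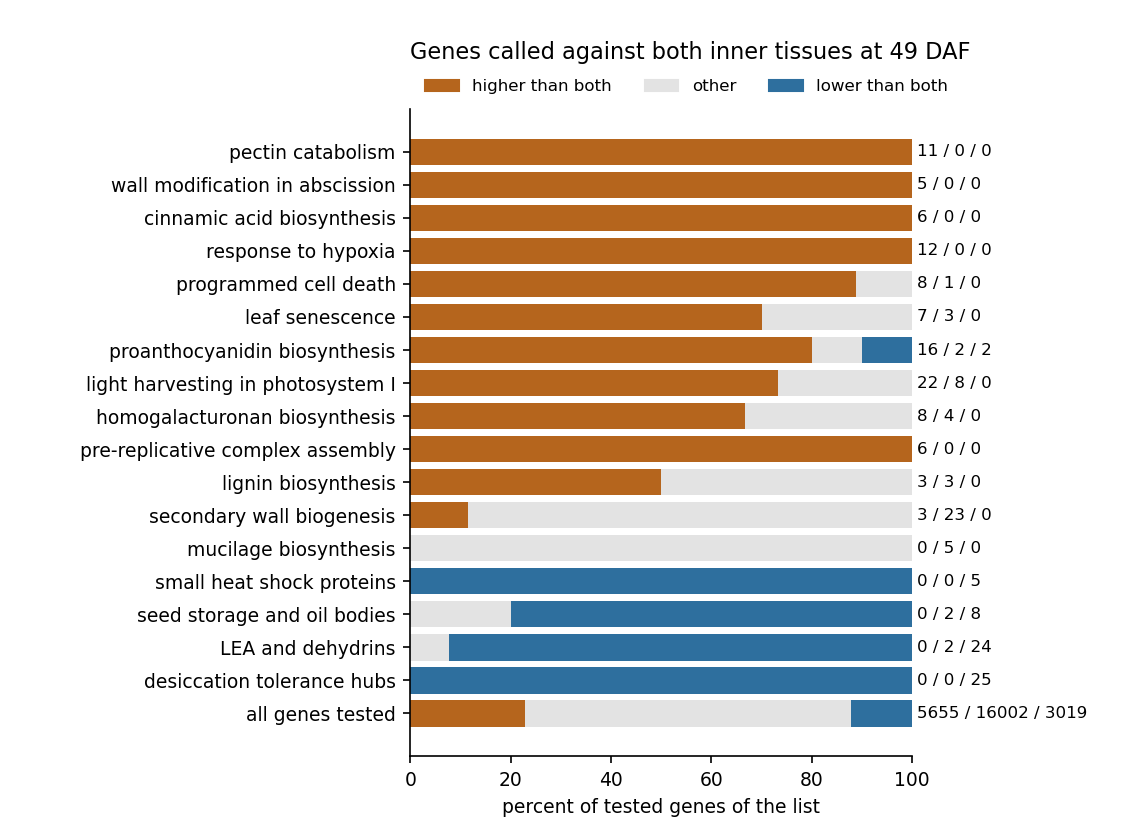
Percent of the tested genes of each list that were called higher than both inner tissues (brown), lower than both (blue) or neither (grey) at 49 DAF, with the 3 counts in the order higher, neither and lower at the right. The pectin, abscission, cinnamic acid, hypoxia and pre-replicative lists were higher throughout, and the hub genes and small heat shock proteins lower throughout.

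Of 20 genes of module ME1 annotated to proanthocyanidin biosynthesis, 16 were higher than in both inner tissues and 2 were lower than in both, beside 22.9% and 12.2% of all genes. The list summed to 6213, 3929 and 4131 CPM in seed coat, 168 to 317 in embryo and 497 to 512 in endosperm. Solyc08g080040 was at 1661, 1099.6 and 1093 CPM in seed coat, at most 1.48 in embryo and 7.75 to 21.2 in endosperm. Solyc10g076660 was at 1771, 515 and 789 CPM in seed coat, with the first library above the other two, and at most 26.5 in any inner library. Solyc07g008410 encodes a DETOXIFICATION protein, of the MATE transporter family, and was at 1.89, 2.65 and 3.97 CPM in seed coat against 69.9 to 79.1 in embryo. Solyc11g013110 encodes a 2-oxoglutarate and Fe(II)-dependent oxygenase and was at 13.0, 12.9 and 12.5 CPM against 70.1 to 220.4 in embryo and 281 to 319.6 in endosperm.

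Most light-harvesting genes listed from modules ME1 and ME5 were also higher in seed coat, a direction that this choice of modules partly fixes. Of the 30 genes of these modules annotated to light harvesting in photosystem I, 22 were higher than in both inner tissues (22.9% of all genes were). None was lower than both by edgeR, at an unadjusted p under 0.05 or by DESeq2. Of the 30, 6 stood at no more than 3 counts per library on average in seed coat while at 0 in embryo, and have no fold there. The list summed to 205, 362 and 274 CPM in seed coat, 16.1 to 18.1 in embryo and 26.3 to 33.4 in endosperm, and Solyc03g005760 alone gave 61.7, 146 and 112 CPM in seed coat. Among 13 genes whose descriptions name photosystem or chlorophyll proteins, 1 was higher than both inner tissues and 4 were lower, beside 11.99% higher and 43.3% lower among all 1276 described genes tested. Of the 4, Solyc01g102770 lost its call against embryo without embryo library 1 (−0.92) and both calls on library totals (−0.48 and −0.69), and Solyc00g500024 lost that against endosperm on library totals (−0.98). The higher one was the photosystem II 5 kDa protein gene Solyc01g008510, at 9.20, 11.8 and 11.9 CPM in seed coat.

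Homogalacturonan biosynthesis genes make the main pectin backbone. Of 12 such genes in module ME1, 8 were higher than in both inner tissues, beside 22.9% of all genes. These differences were smaller than those of the pectin catabolism genes, with a median log2 fold change of 1.73 against the inner mean. Solyc12g010200 was at 52.0, 76.5 and 68.9 CPM in seed coat, at most 0.413 in embryo and 1.72 to 5.25 in endosperm. Solyc04g074290 was at 63.8, 62.8 and 62.9 CPM in seed coat against 4.32 to 4.56 and 13.3 to 15.8. In these module lists, most transcripts for pectin synthesis and for pectin breakdown were higher in the coat than inside it.

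All 6 genes of module ME1 annotated to assembly of the pre-replicative complex, which licenses DNA replication origins, were higher in seed coat than in both inner tissues, beside 22.9% of all genes. The choice of module partly fixes this direction. Their summed level was 244, 99.9 and 108 CPM in seed coat, 11.6 to 12.7 in embryo and 6.14 to 7.62 in endosperm. The first seed coat library held more than the other two. Solyc11g040120 was at 53.1, 24.2 and 26.1 CPM in seed coat and at most 2.73 in any inner library. Solyc01g110130 was at 55.5, 21.98 and 24.5 CPM in seed coat, 5.24, 8.08 and 8.97 in embryo and 1.02 to 2.10 in endosperm. Its log2 fold change against embryo was 1.35 ± 0.367, and without seed coat library 1 it was 0.87 and no longer called. Among 11 cell cycle genes named by description, edgeR called 0 higher than both inner tissues (1 at an unadjusted p under 0.05, 1 by DESeq2) and 5 lower, a share near the 43.3% of all described genes. Among the lower ones was the cyclin-dependent kinase inhibitor SMR5 (Solyc06g076310), at 6.98, 10.4 and 11.9 CPM in seed coat, 227 to 285 in embryo and 41.9 to 50.8 in endosperm.

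The secondary wall, mucilage and lignin genes listed from the study's co-expression modules had low summed levels in seed coat by 49 DAF. Secondary wall biogenesis genes summed to 1195–1482 CPM in seed coat at 35 DAF and to 8.99–14.1 at 49 DAF, and at 49 DAF 14 of the 26 were at no more than 3 counts in every seed coat library. Of the 26, 3 were higher than both inner tissues, a smaller share than the 22.9% of all genes. In these tissues 20 (endosperm) and 23 (embryo) of them were at no more than 3 counts in every library. Solyc02g089130, annotated to cellulose synthesis, was at 0.803, 0.944 and 0.663 CPM in seed coat, at 0 in every embryo library and at most 0.0467 in endosperm. Mucilage biosynthesis genes went from 228–475 CPM in all at 35 DAF to 4.29–8.78, and 0 of 5 were called against both inner tissues by edgeR or DESeq2 (1 was higher at an unadjusted p under 0.05). Lignin biosynthesis genes went from 1882–2413 CPM to 2.29–2.56, and 3 of 6 were still higher than both inner tissues, where the whole list summed to at most 0.326 CPM. These lists overlap, with 3 of the 5 mucilage genes and 2 of the 6 lignin genes also in the secondary wall list.

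ABA synthesis genes divided between coat and inner tissues. The 9-cis-epoxycarotenoid dioxygenases (NCED) cleave carotenoids in the first committed step towards ABA, and NOTABILIS is the NCED gene behind a classical ABA-deficient tomato mutant. NOTABILIS was at 279, 163 and 177 CPM in seed coat, 0.365, 0.276 and 0.641 in embryo and 0.931, 0.561 and 1.76 in endosperm. All 3 seed coat libraries lay far above the other 6, 269-fold above embryo (log2 8.07 ± 0.764, adjusted p = 2.3e-14) and 128-fold above endosperm (log2 7.00 ± 0.699, adjusted p = 2e-13). SlNCED6 had the opposite pattern, at 2.64, 1.86 and 2.85 CPM in seed coat, 34.1, 32.6 and 56.3 in embryo and 19.9, 23.9 and 31.8 in endosperm, and its log2 fold changes were −4.87 ± 0.483 and −3.91 ± 0.468. SlNCED2 was at 10.0, 4.98 and 4.20 CPM in seed coat, 1.504, 1.70 and 1.88 in embryo and 4.70, 4.63 and 3.44 in endosperm. It was called higher than embryo (log2 1.07 ± 0.455, adjusted p = 0.0320), but seed coat and endosperm libraries overlapped. The embryo call was lost without seed coat library 1 (0.65) and also without any 1 of the embryo libraries (1.03 to 1.11).

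**Figure D3:**
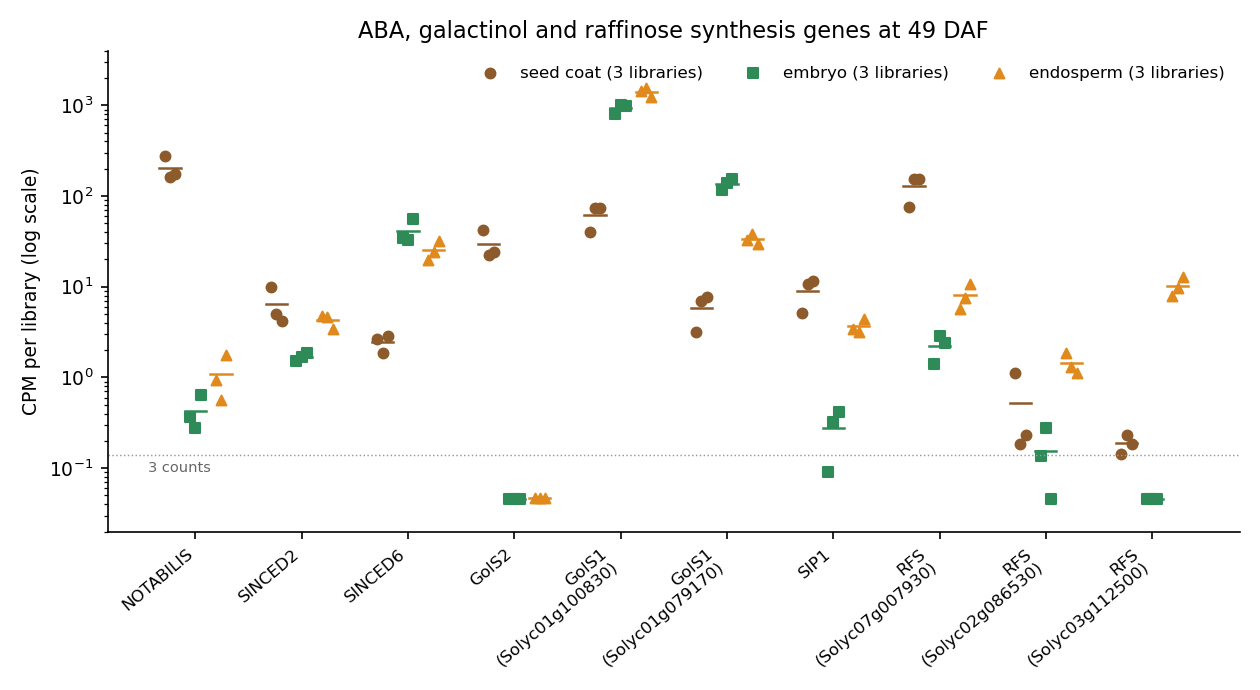
CPM per library (log axis) of 3 NCED genes, 3 galactinol synthase genes, SIP1 and 3 raffinose synthase genes at 49 DAF in seed coat (circles), embryo (squares) and endosperm (triangles), with short lines at the mean of 3 libraries and a dotted line at about 3 counts. NOTABILIS, GolS2 and the raffinose synthase gene Solyc07g007930 are highest in seed coat, whereas SlNCED6 and both genes labelled GolS1 are highest inside it (the study called Solyc01g079170 another GolS).

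Among genes for raffinose family sugars, some copies were higher in the coat and others inside it. Galactinol synthase (GolS) makes galactinol, from which raffinose synthase (RFS) adds galactose to sucrose, and the products accumulate in maturing seeds. GolS2 was at 42.3, 22.3 and 24.4 CPM in seed coat and at 1 count in each of the 6 inner libraries. The ratio of CPM to embryo was 647 (counting interval 221 to 3139), and the one to endosperm 636 (217 to 3085). The GolS1 gene Solyc01g100830 was at 39.8, 74.3 and 73.3 CPM in seed coat, 810.2 to 1016 in embryo and 1242 to 1538 in endosperm. The other GolS1 gene, Solyc01g079170, was at 3.16, 6.89 and 7.66 CPM in seed coat, 117 to 155 in embryo and 29.6 to 38.04 in endosperm. Both were lower in seed coat than in either inner tissue, with log2 fold changes between −5.35 and −3.04.

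Of the RFS genes, Solyc07g007930 was at 76.1, 156 and 153 CPM in seed coat, 1.40, 2.87 and 2.37 in embryo and 5.66, 7.54 and 10.8 in endosperm. It was higher in seed coat than in embryo (log2 5.04 ± 0.921) and in endosperm (3.47 ± 0.834). Solyc03g112500 was higher in endosperm, with a log2 fold change of −6.27 ± 0.857 for seed coat, and both seed coat and embryo lay near the limit of detection. Solyc02g086530 was at 1.13, 0.186 and 0.233 CPM in seed coat and 1.86, 1.31 and 1.11 in endosperm, and its call against endosperm (−2.04 ± 0.827) was lost without seed coat library 2, seed coat library 3 or endosperm library 1 (−1.66, −1.71 and −1.78), and also on library totals (−1.46). SIP1, which the study also called a raffinose synthase gene, was at 5.09, 10.7 and 11.5 CPM in seed coat and 0.0911 to 0.412 in embryo, and it was higher in seed coat (log2 4.23 ± 0.631). Against endosperm, at 3.13 to 4.46 CPM, its log2 fold change of 0.78 ± 0.498 was not called, but on library totals it was 1.31 and called.

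Regulators of seed maturation were lower in seed coat. SlABI3-1 and SlABI3-2, B3-domain factors that switch on maturation genes, were at 3.77, 6.18 and 6.16 CPM and 1.23, 2.95 and 2.85 CPM in seed coat. In the inner tissues SlABI3-1 ranged from 119.7 to 151 CPM and SlABI3-2 from 48.9 to 81.5, and their log2 fold changes lay between −5.77 and −5.20. SlABI5, a bZIP factor of ABA signalling, was at 5.14, 11.9 and 9.24 CPM in seed coat, 77.9 to 108 in embryo and 183 to 258 in endosperm. The relatives of the Arabidopsis dormancy gene DOG1 were lower too. SlDOG1-1 was at 1.93, 3.39 and 5.37 CPM in seed coat against 34.6 to 60.9 in embryo and 76.0 to 109 in endosperm, and SlDOG1-2 at 5.28, 5.36 and 7.28 against 21.5 to 61.4 and 143 to 175. The study described both SlDOG1 genes as higher in embryo than in endosperm over maturation. These counts at 49 DAF have the reverse order, and why they differ was not tested.

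Another set of regulators was higher in embryo than in seed coat but was not called against endosperm. SlFUSCA3, a B3-domain factor, was at 24.7, 16.6 and 7.96 CPM in embryo, at 0.424, 0.373 and 0.373 in seed coat and at 0.465, 0.421 and 0.279 in endosperm. SlWRI1, which controls oil synthesis, was at 11.4 to 34.1 CPM in embryo, 0.420 to 0.896 in seed coat and 0.325 to 1.21 in endosperm. The study described SlWRI1 as more abundant in endosperm than in embryo, the reverse of these counts, and why they differ was not tested. SlABI4-2, an AP2 factor of ABA and sugar signalling, was at 46.6 to 60.5 CPM in embryo and 0.802 to 2.76 in seed coat, and SlABI4-1 at 5.12 to 9.74 and 0 to 0.427. Their log2 fold changes against embryo lay between −6.23 and −5.70, and against endosperm they ranged from −0.65 to 1.14. SlPROCERA, the DELLA repressor of gibberellin responses, was at 23.1, 23.2 and 28.3 CPM in seed coat and 20.2, 28.9 and 36.2 in embryo. These groups overlapped in CPM, and the log2 fold change against embryo of −1.003 stood at the threshold and was no longer called by DESeq2 (−0.93) or without seed coat library 1 or 2 or embryo library 2 or 3 (−0.97 to −0.87). It was −0.19 on library totals. Against endosperm it was −2.08 ± 0.210.

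Protective and storage genes were lower in seed coat as a body. The study listed 25 hub genes of desiccation tolerance, the ability to survive drying. All 25 were lower in seed coat than in both inner tissues, beside 12.2% of all genes and 43.3% of all described genes. Their median log2 fold change was −5.03 against embryo and −4.76 against endosperm. The study chose them on the libraries of this series, by their place in a co-expression module and their correlation with the trait, so their direction is not independent evidence. They summed to 1532, 2822 and 3347 CPM in seed coat, 36671, 50475 and 57476 in embryo and 45237, 54015 and 52830.5 in endosperm. A late embryogenesis abundant (LEA) protein gene, Solyc09g008770, was at 266, 475 and 563 CPM in seed coat against 6876 to 10886 and 6859 to 9241. LEA proteins and dehydrins protect membranes and proteins as water is lost. The dehydrin Solyc02g084840 was at 263, 571 and 633 CPM in seed coat against 5439 to 9428 and 10163 to 13147. The hub with the smallest difference against each inner tissue was diacylglycerol kinase (Solyc03g115370), at 49.4, 57.4 and 59.98 CPM against 269 to 368 and 396 to 417.

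By description, 24 of 26 LEA and dehydrin genes were lower than in both inner tissues, and 8 of 10 storage and oil body genes and 5 of 5 small heat shock protein genes were lower, beside 43.3% of all described genes. Of these 3 lists no member was higher than both by edgeR, at an unadjusted p under 0.05 or by DESeq2. The descriptions came from tables of genes that the study selected on libraries of this series. Hub genes with such descriptions, among them LEA, oleosin and small heat shock genes, also fall in these lists. Their direction is therefore partly built in and not separate from that of the hubs. The vicilin-like storage protein gene Solyc09g065470 was at 543, 891 and 1109 CPM in seed coat, 13353 to 19704 in embryo and 14201 to 17322 in endosperm. The oleosin gene Solyc06g034040, whose product coats oil bodies, was at 222, 301 and 374 CPM against 5919 to 6644 and 4497 to 5307. A tonoplast water channel of seeds, tonoplast intrinsic protein 3.2 (Solyc03g019820), was at 144, 258 and 279.7 CPM against 3909.6 to 5409 and 2872 to 3144. One stress protein went the other way. TAS14 (Solyc02g062390), a tomato dehydrin induced by ABA and salt whose description kept it out of the list, was at 149, 312 and 265 CPM in seed coat, 0.137, 0.459 and 0.229 in embryo and 2.47, 12.3 and 15.7 in endosperm, with log2 fold changes of 8.95 ± 0.879 and 4.05 ± 0.649.

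In each seed coat library most hub genes stood at similar percentages of their inner mean, taken in CPM without TMM scaling. The median over the 25 was 3.10% in seed coat library 1, 5.74% in library 2 and 6.89% in library 3. Apart from diacylglycerol kinase and a lipase (Solyc12g038160), at 13.6% and 10.5% in library 1, the hubs of that library lay between 2.13% and 5.24%. For the 398 genes lower than in both inner tissues with at least 100 CPM inside, the median was 15.1, 19.4 and 17.9% in the 3 libraries and the 5th percentile 2.69, 4.91 and 5.72%. Below 2% of the inner level lay 3 of these genes in library 1 and none in libraries 2 and 3. Whether embryo or endosperm RNA was carried into the seed coat samples was not tested. The endosperm-preferential genes, at 149.8 to 191 CPM in seed coat, and the MADS-box gene Solyc04g078300, at 7.69, 15.3 and 15.2 CPM in seed coat against 568 to 621 in endosperm and 43.7 to 90.4 in embryo, give the level of transcripts typical of endosperm in the same libraries.

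**Figure D4:**
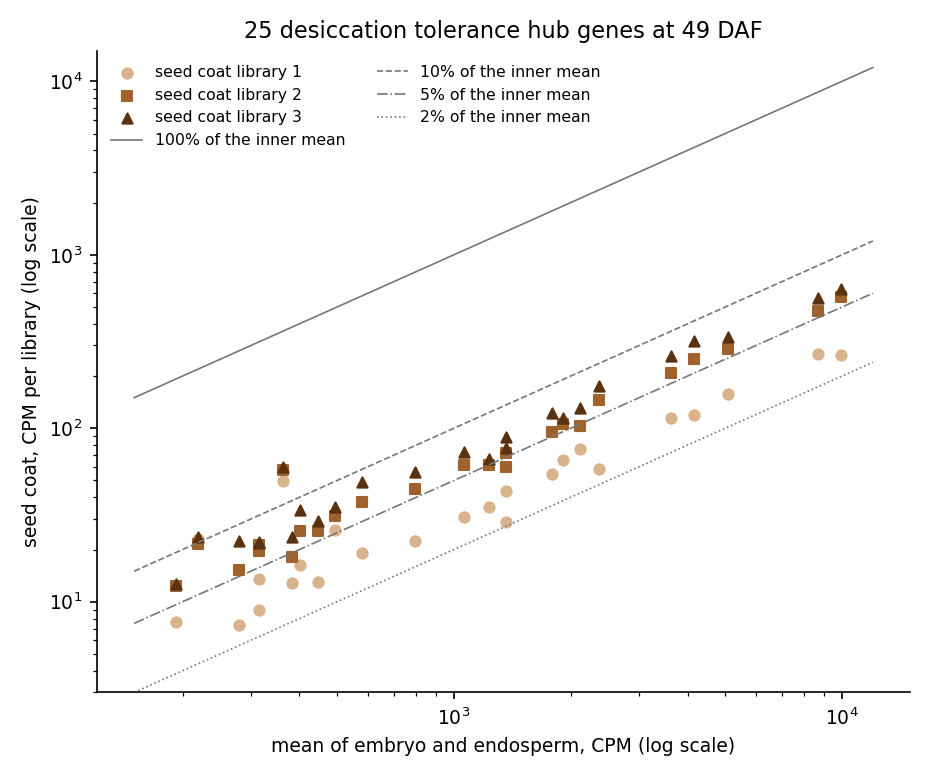
Level of the 25 desiccation tolerance hub genes in each seed coat library (y axis, CPM, log scale) against the mean of their embryo and endosperm levels (x axis, CPM, log scale) at 49 DAF, with lines at 100, 10, 5 and 2% of the inner mean. Points of library 1 lie around a median of 3.10%, those of libraries 2 and 3 around 5.74% and 6.89%.

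Outside these lists, the described genes furthest above the inner tissues came from several families. They were taken by the size of their fold change among genes with at least 10 CPM, and few genes higher in seed coat carry a description (54, against 350 lower). A hydroxyproline-rich glycoprotein gene (Solyc02g063420), of a family of wall proteins, was at 144, 165 and 225 CPM in seed coat and at most 0.604 in any inner library. An MDIS1-interacting receptor-like kinase gene (Solyc01g010230) was at 26.1, 45.8 and 39.8 CPM in seed coat against at most 0.511. A gene for a heavy metal-associated isoprenylated protein (Solyc01g065690) was at 42.4, 93.0 and 78.3 CPM against at most 0.836. SUPPRESSOR OF K(+) TRANSPORT GROWTH DEFECT 1 (Solyc01g097570), named after a protein of vesicle sorting in yeast, was at 14.0, 23.2 and 27.4 CPM in seed coat and at 0 in all embryo libraries, which is at least 156-fold higher taking 3 counts per library as the floor. A transcript described as a transposon polyprotein (Solyc01g010185) was at 143, 176 and 159 CPM against at most 1.95. The other described genes of this kind encode a GLUTAMINE DUMPER protein, an RPM1-interacting protein, Big1, a transmembrane protein, a tRNA methyltransferase subunit, an amino acid transporter and a UBN2 domain protein, with log2 fold changes against the inner mean of 5.80 to 7.45.

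Among the described genes furthest below the inner tissues, transport and signalling were represented beside the hubs. A major facilitator superfamily transporter (Solyc07g026920) had the lowest value, at 0.660, 1.68 and 2.10 CPM in seed coat, 43.1 to 94.3 in embryo and 44.2 to 60.04 in endosperm (log2 −6.02 ± 0.556 against the inner mean). The sugar exporter gene Solyc04g064620, of the SWEET family, was at 2.03, 4.75 and 3.87 CPM against 59.3 to 77.6 and 80.1 to 89.5. Zinc finger transcription factor 50 (Solyc07g053750), named SOMNUS by the study, was at 29.8, 43.2 and 59.2 CPM against 819.5 to 993 and 918 to 1194. A dehydration responsive element binding protein gene (Solyc06g050520) was at 1.04, 1.68 and 1.87 CPM against 42.3 to 44.5 and 24.9 to 29.3. A heat shock 70 kDa protein (Solyc07g005820), a chaperone, and a defensin (Solyc07g007710), an antimicrobial peptide, had log2 fold changes of −5.13 and −5.09 against the inner mean.

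The most abundant seed coat transcripts had no description in the tables used. The 10 with the highest CPM were chosen by their level in seed coat, so their direction is largely given by that choice, and all 10 were higher than in both inner tissues (22.9% of all genes were). Solyc04g150160 was at 27593, 44526 and 44473 CPM in seed coat, which was 3.89% ± 0.976 (SD, n = 3) of the counts. In embryo it was at 11.1 to 19.8 CPM and in endosperm at 244, 1660.0 and 3380.1, and its log2 fold changes were 10.43 ± 1.35 and 3.94 ± 1.02. Solyc10g075100 followed at 1.64% ± 0.231 of the counts and Solyc09g092767 at 1.25% ± 0.579. At 35 DAF the latter had held 283577 to 293184 CPM in seed coat. These shares were not corrected for transcript length. With no description either, Solyc04g064630 was at 57.3, 20.5 and 19.1 CPM in seed coat and at 0 in all 6 inner libraries, at least 235-fold above embryo and at least 231-fold above endosperm (144-fold and 142-fold without seed coat library 1), while Solyc10g008860 was at 1.23, 1.30 and 1.59 CPM in seed coat against 32.3 to 43.5 in embryo and 40.6 to 44.7 in endosperm.

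The contrast between coat and inner tissues was not the same as at earlier ages. From 42 to 49 DAF the difference between seed coat and the inner mean rose for 2208 genes (8.95%) and fell for 1237 (5.01%), tested as a difference of differences in the same fit. From 35 to 49 DAF it rose for 5093 (20.6%) and fell for 3056 (12.4%). The balance depended on scaling, since on library totals 1535 rose and 2077 fell from 42 DAF, and 8911 rose and 1372 fell from 35 DAF. GolS2 rose in both. In seed coat it was at 0.270, 0.224 and 0.489 CPM at 35 DAF, 10.2, 1.71 and 0.825 at 42 DAF and 42.3, 22.3 and 24.4 at 49 DAF, while endosperm went from 11.02–14.2 to 1 count per library. The difference grew by 4.67 ± 1.06 on the log2 scale from 42 DAF and by 10.12 ± 1.13 from 35 DAF. The GolS gene Solyc01g079170 did the reverse. It was at 333, 263 and 190.0 CPM in seed coat at 35 DAF and at 3.16, 6.89 and 7.66 at 49 DAF, while embryo went from 24.8–40.4 to 117–155, a change of the difference of −7.68 ± 0.640.

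The RFS gene Solyc07g007930 went in seed coat from 6.37–10.5 CPM at 35 DAF to 76.1–156 at 49 DAF, and its difference from the inner mean grew by 4.72 ± 1.01. NOTABILIS went in seed coat from 1449–1848 CPM to 163–279. Its inner levels were lower as well, and the change in the difference from 35 DAF was −0.07 ± 0.826 and was not called. SlNCED2 went in seed coat from 26.7–37.3 CPM to 4.20–10.0, and its difference fell by 4.86 on the log2 scale. An ethylene-responsive transcription factor gene (Solyc04g071770) changed sides, from 59.5–98.8 CPM in seed coat and 0.582–0.924 in embryo at 35 DAF to 7.59–20.5 and 124–207 at 49 DAF. A VQ motif gene (Solyc02g031990) went in seed coat from 20.5–36.5 CPM to 1.96–3.12 while endosperm reached 45.8–85.3. For amino acid transporter 2 (Solyc06g060110) the coat hardly moved, at 17.9–21.3 CPM at 42 DAF and 15.7–22.4 at 49 DAF, whereas embryo went from 1.21–12.5 to 0.0458–0.365.

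All 6 pre-replicative complex genes rose against the inner mean from 35 DAF, from 41.6–47.6 CPM in seed coat and 125–250.3 in embryo to 99.9–244 and 11.6–12.7. Of the 12 homogalacturonan genes 9 rose from 35 DAF, of the 30 light-harvesting genes 8, and of the 12 hypoxia genes 4, beside 20.6% of all genes. The pectin catabolism genes went in seed coat from 17.6–18.6 CPM at 35 DAF through 682, 209 and 82.7 at 42 DAF to 881–1085, yet 1 of 11 was called as a change from 35 DAF. Of the 11, 6 were at no more than 3 counts in all seed coat libraries at 35 DAF while all 11 together made up at most 17.2 CPM in an inner library at 49 DAF. The seed coat libraries of 42 DAF were spread widely in this list. Of the 5 mucilage genes 4 fell against the inner mean from 35 DAF, of the 26 secondary wall genes 4 and of the 6 lignin genes 1, beside 12.4% of all genes. Of the 25 hub genes 5 fell against the inner mean from 35 DAF. Seed coat held 131–243 CPM of hub transcripts at 35 DAF and 603–1323 at 42 DAF.

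**Figure D5:**
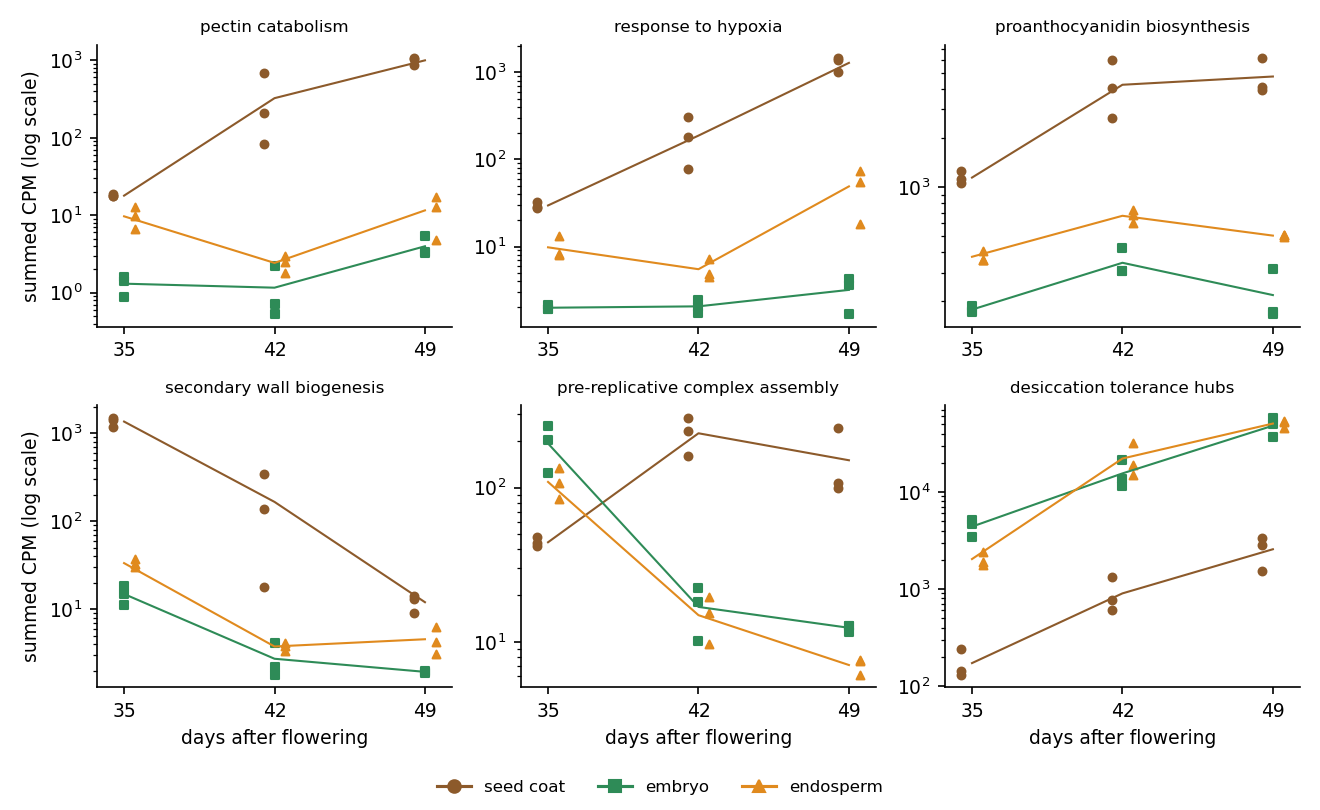
Summed CPM (log axis) of 6 gene lists in seed coat (circles), embryo (squares) and endosperm (triangles) at 35, 42 and 49 DAF, with 1 point per library and lines through the means of 3 libraries. In seed coat, pectin catabolism and hypoxia genes stand highest at 49 DAF, while secondary wall genes stand at 1195 to 1482 CPM at 35 DAF and at 8.99 to 14.1 at 49 DAF.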

How the data were processed

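RNA was sequenced as single-end reads on a BGISEQ-500. The authors quantified transcripts with Salmon 0.14.1 on ITAG 4.0 models of the SL4.0 genome and deposited estimated counts for 84 libraries, 10.5% of the values not whole. Here they were rounded. Of 33976 genes 24676 passed edgeR's filterByExpr by group. All 84 libraries were fitted in edgeR 4.0.16 (R 4.3.3, limma 3.58.1) by the quasi-likelihood test with TMM factors and 1 coefficient per tissue and stage, with Benjamini-Hochberg adjustment. A gene was called past a log2 fold change of 1 at an adjusted p under 0.05. Errors are SE for log2 fold changes and SD otherwise. The same code was tested on simulated data. The alternatives were DESeq2 1.42.0, library totals, no filter, other thresholds, the groups compared alone, a replicate block and leaving out each library. Intervals of CPM ratios are at 95% and exact for counts.

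Gene names came from the paper and its tables (1818 described genes, 1328 with GO terms), and 0 rows of the RefSeq table matched. Named genes were those the paper names, the 15 described and 2 undescribed genes with the largest fold change in each direction that were called against both inner tissues at 10 CPM or more without overlap, the 10 most abundant in seed coat, up to 4 per list, and 3 per direction for each change between ages. The members and lists were chosen with earlier results of these data known. Of 25 lists by description, 18 had under 5 tested members. Where counts of such a list are printed, they describe its few members only. Solyc11g070187, Solyc10g084440, Solyc12g094520 and Solyc02g061900 of these lists fell outside the rule and were named after their values were seen. Tables were handled with Python 3.11.15 (pandas 2.3.3, numpy 2.4.6, scipy 1.17.1, matplotlib 3.10.9).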

Additional observations from a re-analysis of the deposited data

Results flagged for a closer look

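The contrast between seed coat and the inner mean was tested for a difference between ages, and the results that passed are given here. It changed between 42 and 49 DAF for 2208 genes that rose and 1237 that fell, and between 35 and 49 DAF for 5093 and 3056.

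Among sugar genes, the log2 contrast of GolS2 rose by 4.67 from 42 DAF and by 10.12 from 35 DAF, and that of the RFS gene Solyc07g007930 by 4.72 from 35 DAF. The GolS gene Solyc01g079170 changed by −4.57 and −7.68, the GolS1 gene Solyc01g100830 by −2.09 from 35 DAF and SIP1 by −1.71 from 35 DAF. Among ABA genes, SlNCED2 changed by −1.96 from 42 DAF and −4.86 from 35 DAF, SlNCED6 by −2.66 from 35 DAF, SlABI4-2 by 2.61 from 35 DAF and the dormancy gene SlDOG1-2 by −2.14 from 42 DAF.

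Other genes passed as well. SUPPRESSOR OF K(+) TRANSPORT GROWTH DEFECT 1 (Solyc01g097570) rose by 5.50 from 42 DAF and 7.54 from 35 DAF, a UBN2 domain protein gene (Solyc01g010215) by 6.204 from 35 DAF and amino acid transporter 2 (Solyc06g060110) by 3.98 from 42 DAF. Cold regulated protein 27 (Solyc01g108100) changed by −2.76 and a hydroxyproline-rich glycoprotein gene (Solyc02g091700) by −3.12 from 42 DAF. From 35 DAF, the VQ motif gene Solyc02g031990 changed by −7.23 and the ethylene-responsive transcription factor gene Solyc04g071770 by −9.26.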

How the results depend on the processing

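Over 4079 comparisons of a result with an alternative, 4032 kept direction and side of the threshold. Of the mean CPM levels, 262 moved by over 1 SD and 239 did not when library sizes were scaled by TMM. On library totals, 2739 genes were lower than the inner mean, 2907 lower than embryo and 1568 lower than both inner tissues, 1535 rose and 2077 fell from 42 DAF, 8911 rose from 35 DAF and 1372 fell. With the adjusted p alone, 7660 were lower than the inner mean and 5179 lower than both. Leaving out 1 library at a time gave 7382 to 7575 higher and 4726 to 4815 lower against the inner mean, 7289 to 7669 and 5294 to 5461 against embryo, 6869 to 7123 and 5283 to 5457 against endosperm, 5522 to 5646 and 2927 to 2991 against both, 1974 to 2427 and 1118 to 1328 from 42 DAF, and 4918 to 5150 and 2928 to 3077 from 35 DAF. No gene called in the full fit had the opposite call in these. With replicate number as a block, the counts were 7479 and 4858, 7578 and 5440, 7061 and 5401, 5647 and 3021, 2193 and 1232, and 5084 and 3054 in that order. Libraries of different tissues correlated in their deviations at 0.066 to 0.170 with the same number (3 of 9 pairs over 0.1) and at −0.135 to 0.082 with different numbers, and 17 of 18 matched their own number best. This hints that numbers pair samples, but no label gives a shared plant or batch and not every pair exceeded 0.1, so the block is an alternative only. Genes that changed sign were not called in either state. Against endosperm these were SlWRI1 (Solyc01g096860.3.1, −1.004 to 0.07 over the left-out libraries), Solyc02g091700 (0.41 on library totals), SlFUSCA3 (0.0073 on library totals), SlABI4-1 (Solyc03g095973.1.1, 0.32 on library totals, −0.94 to 1.16 over the left-out libraries, 0.38 without seed coat library 1) and SlNCED2 (Solyc08g016720.1.1, −0.075 with the groups compared alone, −0.0068 under the block, −0.41 to 0.23 over the left-out libraries, −0.13 without endosperm library 3). Against embryo it was the RFS gene Solyc02g086530 (−0.33 without seed coat library 1, up to 1.63 without another library). The causes were not tested. Near 3 counts a library, folds rest on few reads.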

Other observations

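Genes of ethylene signalling and synthesis, a gaseous hormone of ripening and senescence, were found by description. Of 12, 7 were lower in seed coat than in both inner tissues and 2 were higher, beside 43.3% and 11.99% of all described genes, so the share lower is not far from that of described genes. The ethylene-responsive transcription factor gene Solyc04g071770 was at 7.59, 17.9 and 20.5 CPM in seed coat, 124 to 207 in embryo and 225 to 282 in endosperm. The higher ones were scarce. The 1-aminocyclopropane-1-carboxylate oxidase 1 gene (Solyc07g049530), whose product makes ethylene, was at 0.958, 2.22 and 1.64 CPM in seed coat and at most 0.138 in any inner library, and an ethylene-responsive nuclear protein gene (Solyc02g070040) was at 3.30, 3.91 and 1.82 CPM. The RAP2-1 factor gene Solyc04g078640 was at 38.4, 85.3 and 86.1 CPM in seed coat and 61.7, 91.7 and 94.0 in embryo, which overlap, and its call against embryo (−1.04) was lost without seed coat library 1 (−0.73) or embryo library 2 (−0.92), by DESeq2 (−0.97) and on library totals (−0.24). Its call against endosperm was lost on library totals (−0.80).

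Genes for organelle RNA editing, which alters chloroplast and mitochondrial transcripts, came from a module that the study formed on these libraries and called embryo-specific, so that a lower level in seed coat than in embryo is partly built in. Of 10, 9 were lower than in embryo, where 22.1% of all genes were, and 1 was lower than in endosperm, where 2 were higher. The median log2 fold change was −1.46 against embryo and −0.03 against endosperm, beside 0.13 and 0.06 over all genes. The difference between the comparisons was not tested, and on library totals the median of all genes against embryo would stand 0.81 higher.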
